A study of Homo sapiens with 16 samples.

Results

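The genes described here encode the SR proteins and the heterogeneous nuclear ribonucleoproteins (hnRNPs), the 2 large families of RNA-binding proteins that choose which splice sites of a pre-mRNA are used. The members were taken from the gene table by symbol: every SRSF gene, TRA2A and TRA2B, and every HNRNP gene, without the 135 rows whose symbol marks a pseudogene. This gave 39 of the 59081 rows, of which 12 were SRSF, 2 were TRA2 and 25 were hnRNP genes. Of these, 37 passed the filter on low counts and were among the 20446 genes tested, and HNRNPCL3 and HNRNPCL4 did not pass it.

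SR proteins carry a domain rich in arginine and serine, bind exonic enhancers and recruit the spliceosome to weak splice sites. The CLK, SRPK and DYRK kinases phosphorylate that domain, and phosphorylation controls where in the nucleus SR proteins reside and whether they are active. The hnRNPs coat nascent transcripts, and many of them oppose SR proteins by binding silencers. Many genes of both families control their own level by splicing in an exon that sends the transcript to nonsense-mediated decay, so that the mRNA level of a member can change with splicing as well as with transcription. The deposited table sums all transcripts of a gene, and isoforms were not analysed here.

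The cells were U2OS, a line from a human osteosarcoma, which all groups kept confluent and without serum for 48 h to make them quiescent. For the last 24 h, cells were given 10 µM harmine hydrochloride or its vehicle water, or 25 µM INDY or its vehicle DMSO, with 4 libraries in each of the 4 groups. Harmine and INDY inhibit the kinase DYRK1A, and the study used them in human cells to interfere with the assembly of the DREAM repressor complex. Doses and vehicles differed between the compounds and no control library was shared. The labels leave unsaid whether the 4 libraries of a group were separate cultures, so a p-value is a measure of the scatter of these libraries only, and that scatter may be technical. Estimated counts summed to 44301910 to 65889667 per library, and 7 mesenchymal markers checked the line: VIM, COL1A1, SPARC, RUNX2, FN1 and CD44 were present at 19.4 CPM (counts scaled to library size) or more in every library, while COL1A2 was at 0 to 0.194 CPM. Of the epithelial and blood markers, EPCAM was at 2.17 to 4.06 CPM and CDH1, KRT19, KRT5, PTPRC, CD3E and HBB stayed at or below 0.595 CPM. These are bulk libraries, so fewer cells with a transcript and less of it per cell cannot be told apart.

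Together the members supplied 0.755% ± 0.0085 of all estimated counts in harmine cells and 0.834% ± 0.0254 in water cells, and 0.848% ± 0.034 in INDY cells and 0.870% ± 0.00606 in DMSO cells (SD, n = 4 each). HNRNPA1 alone averaged 1067 CPM with harmine, 1420 CPM with water, 998 CPM with INDY and 1606 CPM with DMSO. The summed shares therefore rest in good part on this gene. Levels per length, as CPM per kb of the main GENCODE 44 transcript and averaged over the 4 groups, spanned a wide range. HNRNPA1, which binds exonic silencers and shuttles to the cytoplasm, was highest with 339.9. HNRNPK, which binds C-rich RNA, followed with 244.8, SRSF5 with 166, HNRNPF with 158, HNRNPA2B1 with 154 and HNRNPC with 131. At the low end lay TRA2A with 16.8, HNRNPUL2 with 13.8, SRSF8 with 12.9, SRSF10 with 12.7 and HNRNPLL with 10.2, and then HNRNPA1L2 with 1.96, SRSF12 with 0.325 and the 4 HNRNPCL genes with 0.0179 to 0.272. Neighbours in this order rest on the length taken for each gene, and their differences were not tested.

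Harmine left more members lower than higher, by small amounts. Of the 37 members, 12 were lower and 5 higher with harmine than with water at an adjusted p under 0.01. Of all genes tested, 22.8% were lower and 24.9% higher. Unless another setting is named, an adjusted p is from edgeR's quasi-likelihood test with Benjamini-Hochberg adjustment over the 20446 genes. Where another setting or a left-out library is named, it is from that fit, over the genes kept in it. None of the 17 called members had changed by 1.5-fold or more, whereas 8.41% of all genes rose and 7.9% fell by that much. Such changes were rarer among the 10495 genes with a mean of at least 10 CPM, of which 431 rose and 404 fell by that much. The member furthest from 0, HNRNPCL2 at -0.68 ± 0.35 on the log2 scale, was not called (adjusted p = 0.102). The median log2 fold change of the members was -0.08, against 0.02 over all genes. Of the 14 SRSF and TRA2 genes, 6 were lower and 1 was higher, and of the 23 hnRNP genes tested, 6 were lower and 4 higher. Harmine libraries did not overlap with water libraries for 16 members that lay below and 6 that lay above, against 26.4% and 28.6% of all genes.

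**Figure D1:**
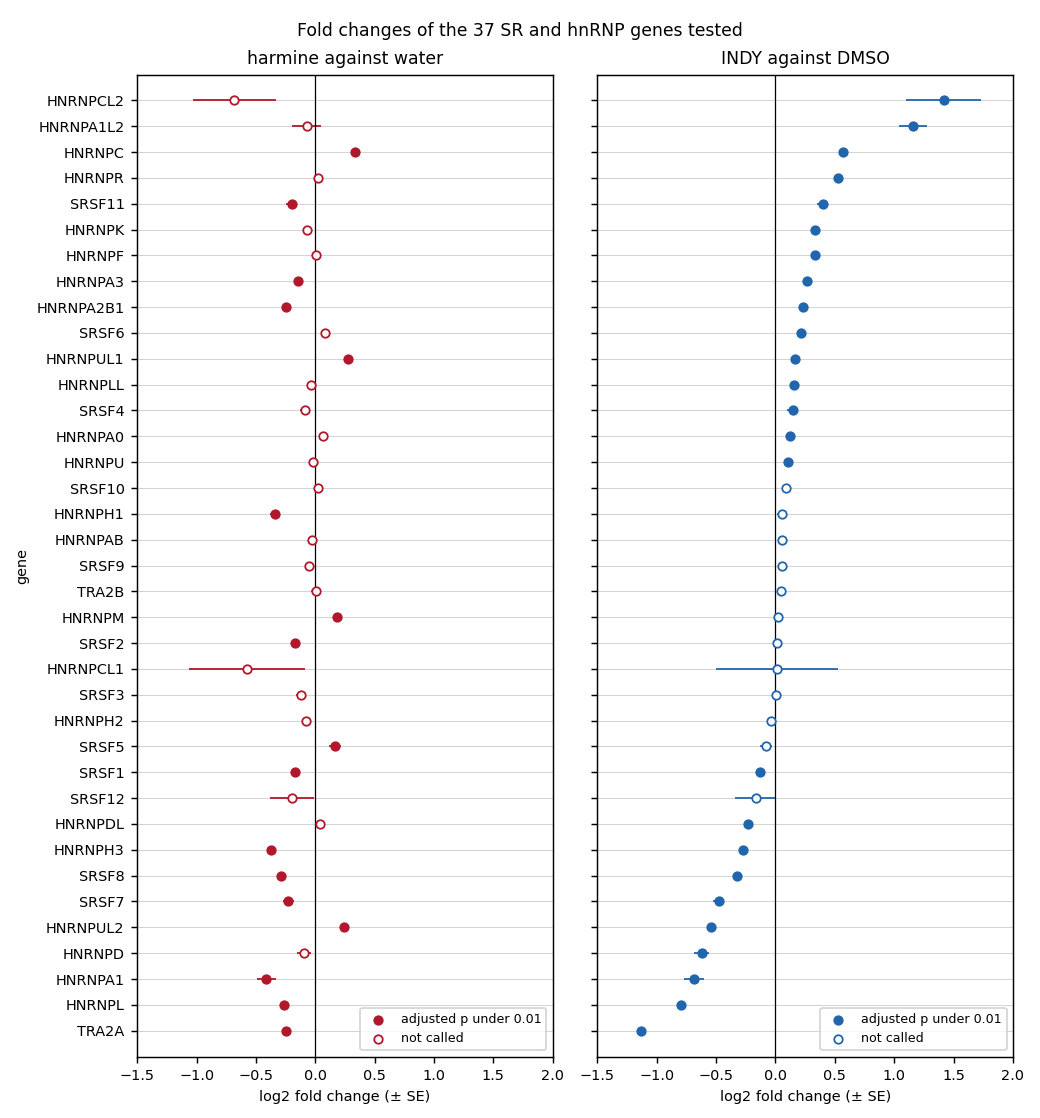
Log2 fold change with its standard error (horizontal bars; shorter than the point for most genes) for the 37 members tested, with harmine against water on the left and INDY against DMSO on the right, in the order of the INDY values. Filled points passed an adjusted p under 0.01: 17 members with harmine, all between -0.41 and 0.34, and 25 with INDY, between -1.13 for TRA2A and 1.42 for HNRNPCL2.

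The largest fall with harmine was that of HNRNPA1, the most abundant member. It had 1089, 1060, 1059 and 1058 CPM in harmine libraries, against 1347, 1518, 1527 and 1288 CPM in water libraries. The groups did not overlap, and water replicates 1 and 4 lay below replicates 2 and 3. The log2 fold change was -0.41 ± 0.08 (SE, adjusted p = 0.000234), a fall of 24.9%.

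The G-tract binding proteins HNRNPH3 and HNRNPH1 came next. HNRNPH3 had 134, 137, 133 and 131 CPM with harmine, against 172, 179, 176 and 165 CPM with water, a log2 fold change of -0.37 ± 0.03 (adjusted p = 1.57e-08). HNRNPH1 had 140.3, 134, 141 and 141 CPM with harmine, against 169, 182, 189.9 and 163 CPM with water, a log2 fold change of -0.34 ± 0.04 (adjusted p = 1.49e-06). For both genes every harmine library lay below every water library. Their relatives did not move as far: HNRNPH2 averaged 171 ± 5.32 CPM with harmine and 181 ± 1.19 CPM with water (SD, adjusted p = 0.0255), which missed the threshold. HNRNPF averaged 382 ± 3.59 CPM with harmine and 380.0 ± 6.87 CPM with water (SD, adjusted p = 0.803).

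SRSF8, an SRSF2-like SR protein, had 50.4, 49.5, 50.8 and 53.2 CPM in harmine cells, against 64.1, 61.5, 61.9 and 61.5 CPM in water cells. HNRNPL, which binds CA repeats, had 173, 170.4, 174 and 175 CPM in harmine cells, against 209, 207, 210.2 and 205 CPM in water cells. The groups were apart for both, with log2 fold changes of -0.29 ± 0.03 for SRSF8 (adjusted p = 7.7e-07) and -0.26 ± 0.04 for HNRNPL (adjusted p = 8.61e-06). The other 7 members that fell were TRA2A (-0.25), HNRNPA2B1 (-0.24), SRSF7 (-0.23), SRSF11 (-0.20), SRSF1 (-0.18), SRSF2 (-0.18) and HNRNPA3 (-0.15), given as log2 fold changes. They include SRSF1, the SR protein that defined the family, and SRSF2, the protein used to mark nuclear speckles.

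HNRNPC, which binds uridine tracts and keeps cryptic exons out of mRNA, had the largest rise with harmine. It had 438, 432, 417 and 419 CPM in harmine libraries, against 331, 347, 351 and 320.4 CPM in water libraries, a log2 fold change of 0.34 ± 0.04 (adjusted p = 2.1e-07). Every harmine library was above every water library. HNRNPUL1, a relative of the nuclear scaffold protein HNRNPU, had 323, 333, 324 and 329.9 CPM with harmine, against 258, 275, 283 and 266 CPM with water (0.27 ± 0.03, adjusted p = 1.55e-07). Its paralogue HNRNPUL2 had 83.7, 87.4, 85.4 and 85.8 CPM with harmine, against 70.0, 72.2, 74.8 and 72.1 CPM with water (0.24 ± 0.04, adjusted p = 1.89e-05), again with no overlap, though it shares sequence with a readthrough gene.

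HNRNPM, which favours exon skipping at GU-rich sites, had 221, 228, 228 and 225 CPM with harmine, against 195, 203, 205 and 192 CPM with water, a log2 fold change of 0.18 ± 0.03 (adjusted p = 9.92e-05). SRSF5, the only SR gene called higher with harmine, had 252, 242, 275 and 268 CPM with harmine, against 223, 224, 236 and 241 CPM with water (0.17 ± 0.05, adjusted p = 0.00642). The lowest harmine library of SRSF5 (242 CPM) lay just above the highest water library (241 CPM). Its call was lost when any harmine library but replicate 2, or any water library but replicate 4, was left out, with adjusted p of 0.0143 to 0.0524 in those fits. SRSF6 averaged 132 ± 1.29 CPM with harmine, against 125 ± 4.04 CPM with water (SD). Every harmine library of SRSF6 lay above every water library, but it missed the threshold (adjusted p = 0.0387).

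INDY moved more members, and moved some of them further. Of the 37 members, 15 were higher and 10 lower with INDY than with DMSO, against 33.2% higher and 33.4% lower over all genes. Changes of 1.5-fold or more were made by 2 members that rose (HNRNPCL2 and HNRNPA1L2) and 4 that fell (TRA2A, HNRNPL, HNRNPA1 and HNRNPD), against 14.3% and 19.4% of all genes. Of the 10495 genes with a mean of at least 10 CPM, 845 rose and 1312 fell by that much. The median log2 fold change was 0.05, against -0.01 over all genes. Of the 23 hnRNP genes tested, 12 rose and 6 fell, and of the 14 SRSF and TRA2 genes, 3 rose and 4 fell. INDY libraries lay above every DMSO library for 14 members and below every one for 10, against 33.4% and 34.1% of all genes.

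The share of members called, 17 of 37 with harmine and 25 of 37 with INDY, was close to that of all genes, 47.7% with harmine and 66.6% with INDY. Among the 10495 genes with a mean of at least 10 CPM, a level that 33 of the 37 members reached, 59.2% were called with harmine and 75.4% with INDY. With INDY 4243 of these genes were higher and 3673 lower, and with harmine 3240 were higher and 2978 lower. The median absolute log2 fold change was 0.17 for the members and 0.18 for these genes with harmine, and 0.22 and 0.29 with INDY.

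TRA2A had the largest fall of any member. The gene (chr7:23504780-23532041, minus strand, GRCh38 with GENCODE 44) encodes a human counterpart of the Drosophila splicing activator transformer-2, which binds GAA-rich exonic enhancers. It had 16.7, 17.1, 16.6 and 17.5 CPM in INDY libraries, against 37.2, 35.7, 37.6 and 38.04 CPM in DMSO libraries. The INDY libraries lay within 1 CPM of each other and at 0.457-fold of the DMSO level, a log2 fold change of -1.13 ± 0.04 (adjusted p = 8.82e-15). With harmine it had 31.0, 28.6, 30.3 and 30.5 CPM, against 36.2, 35.0, 36.9 and 34.5 CPM with water, a log2 fold change of -0.25 ± 0.04 (adjusted p = 1.12e-05). Its paralogue TRA2B was called with neither compound and averaged 139 ± 4.34 CPM with INDY and 134 ± 3.18 CPM with DMSO (SD, n = 4 each).

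HNRNPL (chr19:38836370-38852347, minus strand) had 119.7, 134, 114 and 130.03 CPM in INDY libraries, against 213, 218, 215 and 217 CPM in DMSO libraries. INDY replicates 1 and 3 were below replicates 2 and 4, and all 4 were far from the DMSO libraries. The log2 fold change was -0.79 ± 0.04 (adjusted p = 1.37e-12), against -0.26 with harmine.

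HNRNPA1 (chr12:54280193-54287088, plus strand) showed the same split among INDY libraries, with 913 and 813 CPM in replicates 1 and 3 and 1133 and 1134 CPM in replicates 2 and 4, against 1513, 1641, 1639 and 1631 CPM in DMSO libraries. The log2 fold change was -0.69 ± 0.08 (adjusted p = 3.38e-07). HNRNPD, which binds AU-rich elements and promotes decay of mRNAs that carry them, had 147, 177, 132 and 169 CPM with INDY, against 235, 242, 241 and 247 CPM with DMSO (-0.62 ± 0.06, adjusted p = 3.24e-08). With harmine HNRNPD averaged 216 ± 5.12 CPM, against 231 ± 9.53 CPM with water (SD), and was not called (adjusted p = 0.183). SRSF7, an SR protein with a zinc knuckle that also takes part in mRNA export, had 78.7, 88.9, 73.8 and 89.3 CPM with INDY, against 115, 115, 115 and 116 CPM with DMSO (-0.48 ± 0.05, adjusted p = 4.15e-08).

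The genes HNRNPL, HNRNPA1, HNRNPD and SRSF7 were all lower in INDY replicates 1 and 3 than in replicates 2 and 4, and the opposite order was seen for SRSF11. Further members split as the first 4 did, among them HNRNPC, HNRNPK and HNRNPA2B1. SRSF4 and HNRNPLL were among further members with the opposite order. All members together supplied 0.835% and 0.806% of counts in INDY replicates 1 and 3. Their share was 0.874% and 0.877% in replicates 2 and 4. Without replicates 1 and 3, an alternative chosen after seeing the data, HNRNPL, HNRNPA1, HNRNPD, SRSF7 and SRSF11 all kept their calls. Over this and the other 18 alternatives the log2 fold change lay between -0.83 and -0.70 for HNRNPL, -0.75 and -0.50 for HNRNPA1, -0.68 and -0.47 for HNRNPD, -0.51 and -0.37 for SRSF7, and 0.33 and 0.43 for SRSF11, while that of TRA2A lay between -1.16 and -1.10. The remaining members that fell with INDY were HNRNPUL2 (-0.54), SRSF8 (-0.33), HNRNPH3 (-0.28), HNRNPDL (-0.23) and SRSF1 (-0.13). HNRNPDL is the closest relative of HNRNPD.

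**Figure D2:**
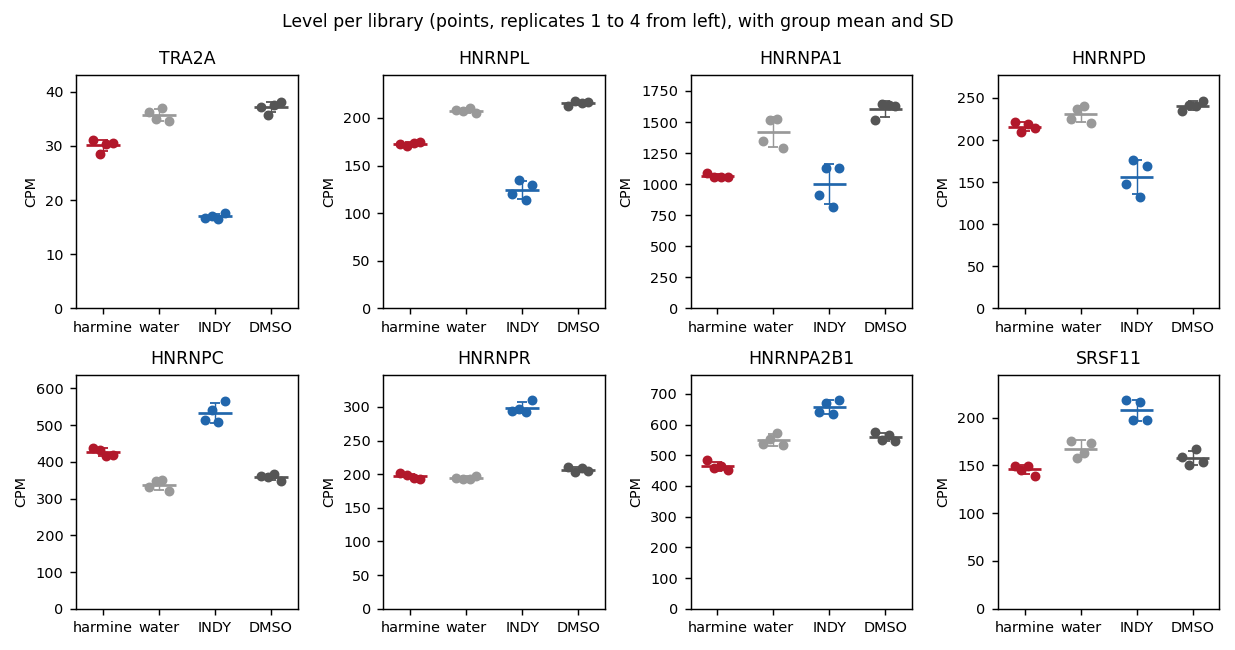
Level of 8 members in CPM in each library, with the group mean (horizontal line) and SD (vertical bar), n = 4 per group, with an axis from 0. The INDY points of TRA2A, HNRNPL, HNRNPA1 and HNRNPD lie below all DMSO points, those of HNRNPC and HNRNPR above them, and HNRNPA2B1 and SRSF11 lie below their controls with harmine and above them with INDY.

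Among abundant members, HNRNPC rose most with INDY, with 514, 540.3, 509 and 567 CPM, against 361, 358, 366 and 347 CPM with DMSO (0.57 ± 0.04, adjusted p = 5.63e-11). HNRNPR, a relative of the translation regulator SYNCRIP, had 294, 297, 292 and 310.2 CPM with INDY, against 210.3, 203, 209.9 and 204 CPM with DMSO, a log2 fold change of 0.53 ± 0.03 (adjusted p = 1.34e-12). No library of one group overlapped with the other for either gene. With harmine HNRNPR averaged 197 ± 3.56 CPM, against 195 ± 2.21 CPM with water (SD, adjusted p = 0.548).

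SRSF11, a spliceosome-associated SR protein, had 218, 198, 216 and 198 CPM in INDY libraries, against 159, 151, 167 and 154 CPM in DMSO libraries (0.40 ± 0.04, adjusted p = 1.4e-07). HNRNPK rose to 845 ± 29.3 CPM with INDY, against 669 ± 11.8 CPM with DMSO (SD, log2 fold change 0.34), and HNRNPF to 479 ± 9.07 CPM with INDY, against 379.8 ± 7.48 CPM with DMSO (SD, 0.33). The others that rose were HNRNPA3 (0.27), HNRNPA2B1 (0.23), SRSF6 (0.22), HNRNPUL1 (0.17), HNRNPLL (0.16), SRSF4 (0.15), HNRNPA0 (0.13) and HNRNPU (0.10), on the log2 scale. Among them, HNRNPA0 binds AU-rich elements, HNRNPU is the nuclear scaffold protein of the family, and SRSF4 and SRSF6 are closely related SR proteins. The call of SRSF4 was lost without either of INDY replicates 1 and 3 or without any DMSO library, with adjusted p of 0.0131 to 0.0263 in those fits. Without INDY replicate 3 the log2 fold change of SRSF4 was 0.09. Without INDY replicates 1 and 3, chosen after seeing the data, it was 0.05 (adjusted p = 0.204). The INDY and DMSO libraries of SRSF4 overlapped. Its call was also lost with upper-quartile factors, no scaling factors, no filter on low counts, or the compared groups alone (adjusted p of 0.013 to 0.0396). The call of HNRNPA0 was lost with upper-quartile factors, no scaling factors or no filter on low counts (adjusted p of 0.0101 to 0.0131). That of HNRNPU was lost with no filter on low counts (adjusted p = 0.0219), and that of HNRNPLL without INDY replicates 1 and 3 (adjusted p = 0.0116).

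Sequence upstream of the transcription start is shown for 2 members that fell and 2 that rose with INDY, to set the promoters of members that moved in opposite directions beside each other. The 4 were picked after their values were seen. The 120 bases are from the RefSeq promoter table on GRCh38.p14, which held 35 of the 39 members, and are written 5′ to 3′ on the gene's strand up to the base before the start. Capitals mark exact matches, on either strand, to the GC box GGGCGG or the CCAAT box. HNRNPL (chr19:38852348-38852467, minus strand) and SRSF7 (chr2:38751495-38751614, minus strand) fell with both compounds, and HNRNPK (chr9:83980616-83980735, minus strand) and SRSF4 (chr1:29181901-29182020, minus strand) rose with INDY. The rise of SRSF4 was small, and its call was lost in many of the alternatives.
HNRNPL: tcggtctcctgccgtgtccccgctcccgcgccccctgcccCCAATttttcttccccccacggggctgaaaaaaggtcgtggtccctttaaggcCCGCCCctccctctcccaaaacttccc
SRSF7: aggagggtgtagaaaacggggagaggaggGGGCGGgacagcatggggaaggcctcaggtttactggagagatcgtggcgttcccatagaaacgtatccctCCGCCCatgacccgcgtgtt
HNRNPK: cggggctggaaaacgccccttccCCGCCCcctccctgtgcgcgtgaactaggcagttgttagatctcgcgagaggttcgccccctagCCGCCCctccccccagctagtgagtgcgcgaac
SRSF4: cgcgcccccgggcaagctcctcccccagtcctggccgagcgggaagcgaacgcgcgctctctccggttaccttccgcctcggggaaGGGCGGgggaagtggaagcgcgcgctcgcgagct
All 4 hold a GC box here, and HNRNPL alone of the 4 holds a CCAAT box.

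Over the 250 bases upstream, GGGCGG stood in 21 of the 35 members, against 42.3% of all 27305 promoters of that length, and CCAAT in 17, against 33.0%. TATAAA stood in 5 (HNRNPAB, HNRNPC, HNRNPD, SRSF11 and SRSF3), against 11.1%, and the ETS core CCGGAAG in 5 (HNRNPD, HNRNPF, HNRNPLL, SRSF4 and SRSF5), against 8.82%. Of the E2F and CHR sequences linked to the DREAM complex, TTTCCCGC of the E2F type stood in 3 (HNRNPLL, SRSF10 and TRA2B), against 1.42%, and TTTGGCGC in 0, against 0.553%. The CHR core TTTGAA stood in 2 (HNRNPCL4 and SRSF6), against 13.6%. The study's own DREAM motifs, of the E2F, NRF2, CREB and n-MYC type and searched over a longer upstream stretch, were not searched in full here. The cAMP response element TGACGTCA stood in 0 members, against 1.77% of all promoters. Both strands were searched, and none of these motifs contains another. These are exact matches of letters and say nothing of binding.

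The 2 compounds were then set side by side. Both raised 2 members, HNRNPC and HNRNPUL1, against 12.1% of all genes tested, and both lowered 7, HNRNPA1, HNRNPH3, HNRNPL, SRSF1, SRSF7, SRSF8 and TRA2A, against 12% of all genes. With neither compound were 8 members called, HNRNPAB, HNRNPCL1, HNRNPH2, SRSF3, SRSF9, SRSF10, SRSF12 and TRA2B, against 20.6% of all genes. Of these, SRSF3 averaged 176 ± 4.49 CPM with harmine and 191 ± 6.42 CPM with water (SD, adjusted p = 0.013), and it passed without harmine replicate 1 (adjusted p = 0.00532) or water replicate 4 (adjusted p = 0.00564). It also passed with DESeq2, upper-quartile factors or no scaling factors (adjusted p of 0.00153 to 0.00735). The same held with no filter on low counts, at least 10 counts in every library, or the compared groups alone (adjusted p of 0.00153 to 0.00748). HNRNPH2 passed with harmine without harmine replicate 1 or 2 (adjusted p = 0.00721 and 0.00965). It also passed with DESeq2, upper-quartile factors, no scaling factors or the compared groups alone (adjusted p of 0.00141 to 0.00826). SRSF10, a splicing repressor when dephosphorylated, passed with INDY without INDY replicate 2 (0.13, adjusted p = 0.00186). SRSF9 averaged 114 ± 1.49 CPM with harmine and 118 ± 1.34 CPM with water, and 122 ± 1.84 CPM with INDY and 117 ± 4.603 CPM with DMSO (SD). HNRNPAB, a relative of HNRNPD, averaged 102 ± 1.09 CPM with harmine and 104 ± 2.13 CPM with water, and 111 ± 2.44 CPM with INDY and 107 ± 3.55 CPM with DMSO (SD). SRSF12, a relative of SRSF10, averaged 0.945 to 1.39 CPM in the 4 groups. The harmine effect was above the INDY effect for 8 members and below it for 14, against 28.1% and 26.4% of all genes, by the test of the difference between the effects in the same model.

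Of these 22, 4 were called in opposite directions by the compounds. That is 4 of the 37 members tested, against 10.8% of all genes, so the number of such members was near the background. HNRNPA2B1, a close relative of HNRNPA1, had 484, 458, 463 and 451 CPM with harmine, against 536, 554, 573 and 535 CPM with water. With INDY it had 641, 669, 636 and 681 CPM, against 577, 551, 564 and 548 CPM with DMSO. The difference between the effects was -0.47 ± 0.04 on the log2 scale (adjusted p = 3.73e-08). HNRNPA3 averaged 328 ± 10.2 CPM with harmine, against 363 ± 8.73 CPM with water, and 447 ± 14.7 CPM with INDY, against 371 ± 6.38 CPM with DMSO (SD, n = 4 each), a difference of -0.41 ± 0.04 (SE, adjusted p = 9.02e-08). SRSF11 had 149.6, 145, 149.7 and 139 CPM with harmine, against 176, 158, 163 and 174 CPM with water, a log2 fold change of -0.20 ± 0.04 (adjusted p = 0.000703), and the harmine effect minus the INDY effect was -0.60 ± 0.06 (adjusted p = 1.29e-07). Its harmine call was lost without water replicates 1 and 4, chosen after seeing the data (-0.14, adjusted p = 0.0299). HNRNPUL2, the last of the 4, is given with the rows that share its sequence.

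The largest differences in the other direction were those of TRA2A, at 0.89 ± 0.05 (adjusted p = 7.47e-11), HNRNPUL2, at 0.79 ± 0.05 (adjusted p = 4.99e-10), and HNRNPL, at 0.53 ± 0.05 (adjusted p = 9.78e-08), where TRA2A and HNRNPL lay further below their controls with INDY than with harmine and HNRNPUL2 lay above its controls with harmine and below them with INDY. HNRNPD (0.53), HNRNPDL (0.28), SRSF7 (0.25), SRSF5 (0.25) and HNRNPM (0.16) made up the 8. The last 3 of these calls depended on which libraries were in the fit. That of SRSF7 was lost without harmine replicate 1 or 3 (adjusted p = 0.0118 and 0.0105). It was also lost without water replicates 1 and 4 (adjusted p = 0.0237) and without INDY replicates 1 and 3 (0.12, adjusted p = 0.0257). Both pairs were chosen after seeing the data. That of SRSF5 was lost without water 2, harmine 3 or 4, DMSO 3, or INDY 1 or 2 (adjusted p of 0.0103 to 0.0193), and that of HNRNPM without water 4, harmine 2, 3 or 4, DMSO 3 or INDY 3 (adjusted p of 0.0102 to 0.0196). Below the INDY effect, besides those named, were HNRNPCL2 (-2.10 ± 0.47, adjusted p = 0.000742), HNRNPA1L2 (-1.23 ± 0.17, adjusted p = 4.31e-06), HNRNPR (-0.51), HNRNPK (-0.41), HNRNPH1 (-0.40), HNRNPF (-0.33), HNRNPC (-0.23), SRSF4 (-0.23), SRSF2 (-0.19), HNRNPLL (-0.19) and HNRNPU (-0.13). Without water replicates 1 and 4 the calls of SRSF4 and HNRNPLL were lost (adjusted p = 0.0243 and 0.0196). That of HNRNPU was lost with no filter on low counts (adjusted p = 0.0176). Most of the 22 members thus differed by under 1.5-fold between the compounds, and TRA2A, HNRNPUL2, HNRNPCL2, HNRNPA1L2 and SRSF11 by more. For members such as SRSF8, with a difference of 0.04 ± 0.05, and SRSF1, with -0.04 ± 0.04, no difference was detected. SRSF6 (-0.14, adjusted p = 0.0145), SRSF3 and SRSF9 missed the threshold for the difference and passed it when certain libraries were left out: water 1, DMSO 3, INDY 1 or INDY 2 for SRSF6 (adjusted p of 0.00568 to 0.00821), INDY 3 for SRSF3 (adjusted p = 0.00199) and DMSO 1 for SRSF9 (adjusted p = 0.00396).

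Between the vehicles, 3 members were higher with DMSO than with water and 0 lower by edgeR, against 1.58% and 2.71% of all genes. At an unadjusted p under 0.05, 1 member was lower (HNRNPA1L2), and DESeq2 and limma voom each called 0 lower. HNRNPH1 averaged 216 ± 11.2 CPM with DMSO and 176 ± 12.04 CPM with water (SD), a log2 fold change of 0.30 ± 0.04 (adjusted p = 0.000256). TRA2B averaged 134 ± 3.18 CPM with DMSO and 119 ± 7.23 CPM with water (0.17 ± 0.04, adjusted p = 0.00596), and HNRNPM 222 ± 2.21 CPM with DMSO and 199 ± 6.21 CPM with water (0.16 ± 0.03, adjusted p = 0.00491). The harmine fall of HNRNPH1 and the harmine rise of HNRNPM are set against the water libraries of this difference. The calls of TRA2B and HNRNPM were lost without water replicate 1 or 4 or without any of DMSO replicates 2, 3 and 4, with adjusted p of 0.0128 to 0.0273 in those fits, and that of HNRNPH1 was kept.

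Within a library, the ratio of 2 paralogues does not depend on the scaling of that library. The log2 ratio of TRA2A to TRA2B was -3.03 ± 0.05 with INDY and -1.85 ± 0.06 with DMSO, and -1.99 ± 0.04 with harmine and -1.74 ± 0.08 with water (SD, n = 4 each). That of HNRNPL to HNRNPLL, which regulates CD45 splicing in lymphocytes, was 1.45 ± 0.15 with INDY and 2.40 ± 0.04 with DMSO, and 2.09 ± 0.03 with harmine and 2.32 ± 0.09 with water. HNRNPA1 over HNRNPA2B1 was 0.59 ± 0.19 with INDY and 1.52 ± 0.09 with DMSO, and 1.20 ± 0.03 with harmine and 1.37 ± 0.08 with water. For these 3 pairs, and for SRSF7 over SRSF3 and HNRNPD over HNRNPDL, every treated library lay below every control library with both compounds.

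SRSF7 over SRSF3, the smallest SR protein, was -1.28 ± 0.05 with INDY and -0.79 ± 0.02 with DMSO, and HNRNPD over HNRNPDL was -0.27 ± 0.13 with INDY and 0.12 ± 0.05 with DMSO. The pair HNRNPH1 and HNRNPH2 did not follow this: its log2 ratio was -0.30 ± 0.07 with harmine and -0.04 ± 0.09 with water with no overlap, but 0.38 ± 0.07 with INDY and 0.28 ± 0.10 with DMSO, which overlapped. HNRNPUL2 over HNRNPUL1, of which the first shares sequence with a readthrough gene, was -2.58 ± 0.07 with INDY and -1.88 ± 0.10 with DMSO, and -1.94 ± 0.01 with harmine and -1.90 ± 0.02 with water, where the groups overlapped. The pairs were chosen with the fold changes known, so the ratios are a description and were not tested.

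**Figure D3:**
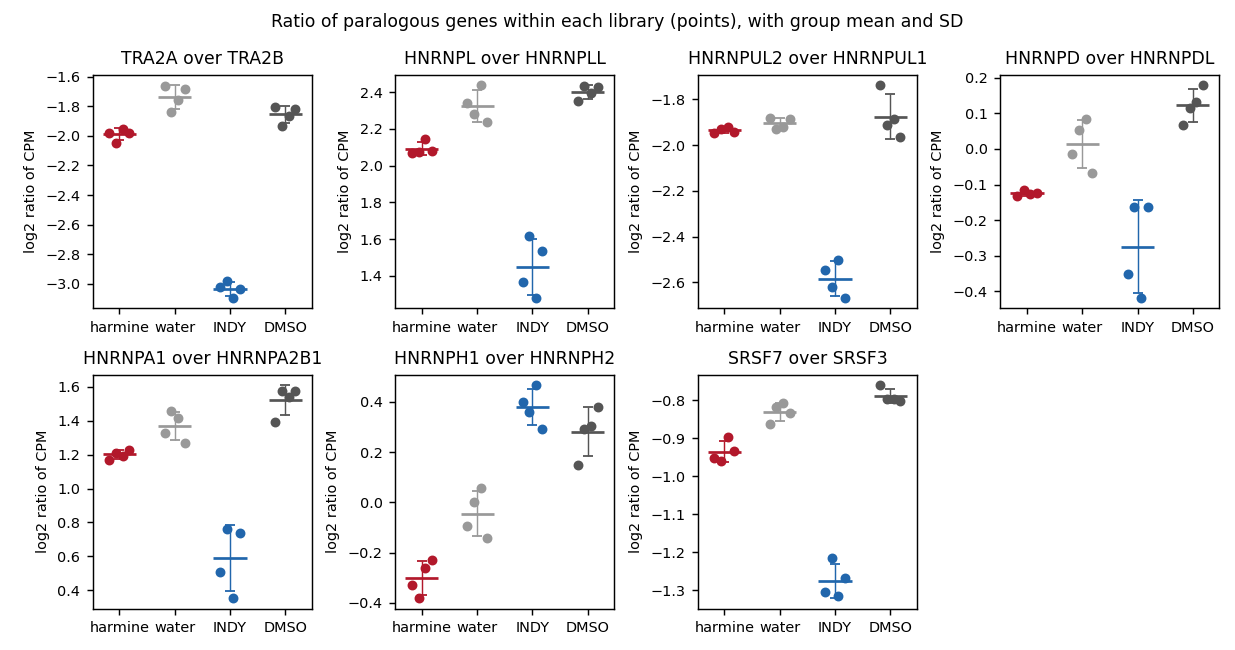
Log2 ratio of the CPM of 2 paralogous members in each library, with the group mean and SD, n = 4 per group. For TRA2A over TRA2B the INDY libraries lie between -3.09 and -2.98, and the DMSO libraries between -1.93 and -1.80.

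Several members share sequence with other annotated rows, where the assignment of reads can move counts from one row to another. By the share of 100-nt stretches of their GENCODE 44 transcripts that also occur in another gene, 20 of the 39 members shared none and 12 shared over 5%. HNRNPUL2 shared 42.65% with the readthrough gene HNRNPUL2-BSCL2. HNRNPUL2 itself had 53.7, 52.5, 53.8 and 50.2 CPM in INDY libraries, against 82.8, 74.2, 76.3 and 72.5 CPM in DMSO libraries, a log2 fold change of -0.54 ± 0.04 (adjusted p = 2.59e-10). The readthrough row went the other way, with 56.8, 50.7, 81.8 and 55.3 CPM with INDY, against 28.8, 29.6, 31.2 and 30.6 CPM with DMSO. With both rows added together the log2 fold change of HNRNPUL2 was 0.095 ± 0.06 and was not called (adjusted p = 0.158), and the difference between the compounds was 0.09 (adjusted p = 0.36). Its rise with harmine was then 0.19 ± 0.06 and was not called (adjusted p = 0.0122).

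SRSF1 shared 28.16% with AC015813.2, a row known by a clone-based symbol. SRSF1 had 281, 288, 273 and 276 CPM with INDY, against 298, 304, 310.1 and 314 CPM with DMSO, while AC015813.2 had 43.6, 37.6, 57.0 and 43.1 CPM with INDY, against 13.7, 13.1, 13.9 and 11.6 CPM with DMSO. With the counts of AC015813.2 added, an alternative chosen after seeing the data, the INDY log2 fold change of SRSF1 was 0.023 ± 0.03 in place of -0.13 ± 0.03 and was no longer called (adjusted p = 0.431). Its fall with harmine remained, at -0.12 ± 0.03 (adjusted p = 0.000504), and the difference between the compounds' effects on SRSF1 then passed, at -0.15 ± 0.04 (adjusted p = 0.00194). The directions of HNRNPUL2 and SRSF1 with INDY are therefore those of the rows as deposited.

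**Figure D4:**
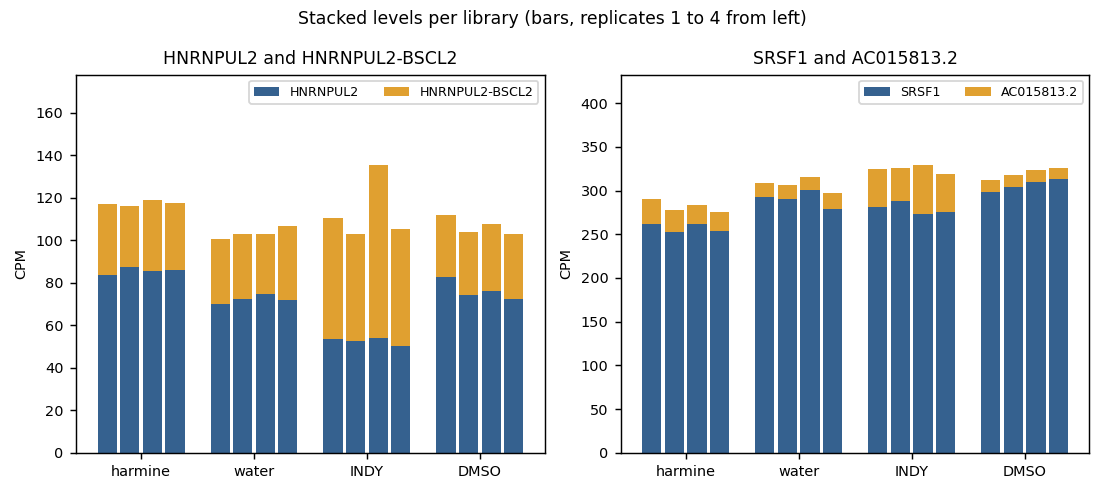
CPM of HNRNPUL2 and SRSF1 in each library (blue), with the row that shares most sequence with each stacked on top (orange), 4 bars per group. With INDY the blue part is lower than with DMSO while the orange part is higher, and the summed bars average 113.7 and 106.5 CPM for HNRNPUL2 and 325 and 319.7 CPM for SRSF1.

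HNRNPA1L2, a gene without introns that resembles HNRNPA1, shared 100% of its stretches with other genes. It had 4.38, 3.90, 4.85 and 3.50 CPM with INDY, against 2.14, 1.73, 1.75 and 1.83 CPM with DMSO (1.16 ± 0.12, adjusted p = 4.95e-08), and 2.52, 2.18, 1.92 and 2.19 CPM with harmine, against 2.47, 2.54, 2.22 and 2.02 CPM with water. Its INDY libraries were above all others. HNRNPCL2, a HNRNPC-like gene, rested on 25, 28, 34 and 32 counts in INDY libraries, against 9, 14, 11 and 11 counts in DMSO libraries, with 0.50, 0.527, 0.546 and 0.683 CPM against 0.146, 0.278, 0.188 and 0.237 CPM (1.42 ± 0.32, adjusted p = 0.000548). In harmine libraries it had 2, 11, 9 and 15 counts, against 11, 23, 16 and 22 counts in water libraries, which overlapped. HNRNPCL1 had 2 to 24 counts in a library, and HNRNPCL3 and HNRNPCL4 had at most 10. All 4 HNRNPCL genes share 37.18% to 93.82% of their stretches with each other or with further copies, so that their own expression is uncertain. The pseudogene rows of HNRNPA1, 75 in number, summed to at most 1.02% of its level in any library.

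Other genes of splicing were read from lists written from general knowledge with earlier results of these data known, and these are described by counts alone. Kinases that phosphorylate SR proteins were higher with INDY for 11 of 13, against 33.2% of all genes, with a median log2 fold change of 0.46, and the other 2 were not called. With harmine 3 were higher and 3 lower, close to the 24.9% and 22.8% of all genes. DYRK4 rose to 59.2 ± 6.55 CPM with INDY, against 22.1 ± 0.60 CPM with DMSO (log2 fold change 1.42), and to 29.7 ± 1.104 CPM with harmine, against 22.3 ± 0.49 CPM with water (0.41). DYRK1B rose to 4.19 ± 0.36 CPM with INDY, against 2.03 ± 0.30 CPM with DMSO (1.05), and to 3.19 ± 0.47 CPM with harmine, against 1.92 ± 0.30 CPM with water (0.73). DYRK1A, the target of the compounds, was higher with INDY (0.25) and not called with harmine (-0.09). Named after their values were seen, CLK2 was the third kinase higher with harmine (0.41), and CLK4 (-0.28), SRPK2 (-0.15) and PRPF4B (-0.13) were lower.

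SR-related proteins, which carry arginine and serine repeats but lie outside the SRSF family, were higher with INDY for 21 of 23, against 33.2% of all genes, with a median of 0.49, and the other 2 were not called. CLASRP, a partner of CLK4, averaged 61.6 ± 9.98 CPM with INDY and 29.0 ± 1.504 CPM with DMSO (1.09), and PNN, of desmosomes and nuclear speckles, averaged 138 ± 5.28 CPM with INDY and 67.2 ± 2.09 CPM with DMSO (1.04). With harmine 6 of the 23 were higher, close to the 24.9% of all genes, among them SCAF1 (0.40) and RSRC1 (0.38), and 1, named after its value was seen, was lower (SON, -0.15). The 14 SRSF and TRA2 genes had INDY counts of 3 higher and 4 lower and a median of 0.01 in the same libraries.

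Core spliceosome genes were higher for 15 of 25 and lower for 4 with harmine, against 24.9% and 22.8% of all genes. With INDY 15 were higher and 3 lower, against 33.2% and 33.4%. SF1, which recognises the branch point, had the largest rise with both, to 524 ± 16.3 CPM with INDY, against 234 ± 4.20 CPM with DMSO (1.16), and to 327 ± 4.90 CPM with harmine, against 228 ± 1.28 CPM with water (0.52). SF3A2 rose with harmine to 80.0 ± 4.51 CPM, against 57.0 ± 3.12 CPM with water (0.49). PRPF8, the core protein of the catalytic centre, fell to 151 ± 16.01 CPM with INDY, against 317 ± 4.35 CPM with DMSO (-1.07). The other falls are named after their values were seen: with INDY those of the helicase SNRNP200, to 353 ± 64.4 CPM, against 717 ± 3.56 CPM with DMSO (-1.02), and SF3B6 (-0.18), and with harmine those of PRPF8 (-0.26), SF3B6 (-0.19), SF3B3 (-0.17) and SNRPB2 (-0.16).

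Genes of nonsense-mediated decay and the exon junction complex, the route by which unproductive SR and hnRNP transcripts are removed, were higher for 11 of 15 and lower for 1 with INDY, against 33.2% and 33.4% of all genes. With harmine 4 were higher, close to the 24.9% of all genes, and 2 lower, against 22.8%. UPF1, the central helicase of this decay, rose to 152 ± 14.5 CPM with INDY, against 88.1 ± 3.30 CPM with DMSO (0.78), and RBM8A, of the exon junction complex, to 235 ± 4.75 CPM with INDY, against 152 ± 2.42 CPM with DMSO (0.63). With harmine RBM8A rose (0.29). Named after their values were seen, SMG9 (0.14), SMG6 (0.12) and UPF3A (0.10) were higher and SMG1 (-0.15) lower with harmine, and MAGOHB (-0.61) was lower with INDY. Of the 39 members, 28 have at least 1 transcript annotated for nonsense-mediated decay.

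The 3 transportins that carry SR and hnRNP proteins into the nucleus were higher with INDY, against 33.2% of all genes: TNPO3, the importer of SR proteins, by 0.49, TNPO1 by 0.21 and TNPO2 by 0.16 on the log2 scale, while with harmine TNPO1 was lower (-0.18). Of the 9 hnRNP proteins with other symbols, 4 were higher with INDY, against 33.2% of all genes, and the other 5 were not called. The 4 were PTBP1 (0.56), which represses exons through pyrimidine tracts, RALY (0.24), PTBP2 (0.21) and PCBP2 (0.09). With harmine 3 of the 9 were higher and 2 lower, against 24.9% and 22.8% of all genes. PCBP2 (0.30), RALY (0.26) and SYNCRIP (0.20) were the 3 that were higher, and RBMX (-0.24) was among the lower. Of 25 other splicing regulators tested, 7 were higher and 8 lower with INDY, close to the 33.2% and 33.4% of all genes, with CELF3 (-1.43) and RBFOX1 (-1.33) furthest down. With harmine 7 were higher and 4 lower, against 24.9% and 22.8% of all genes. Of those called, CELF3 (-0.76) and KHDRBS3 (0.58) lay furthest from 0. The other 3 that fell with harmine, named after their values were seen, were RBFOX1 (-0.53), NOVA2 (-0.26) and RBFOX3 (-0.26).

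**Figure D5:**
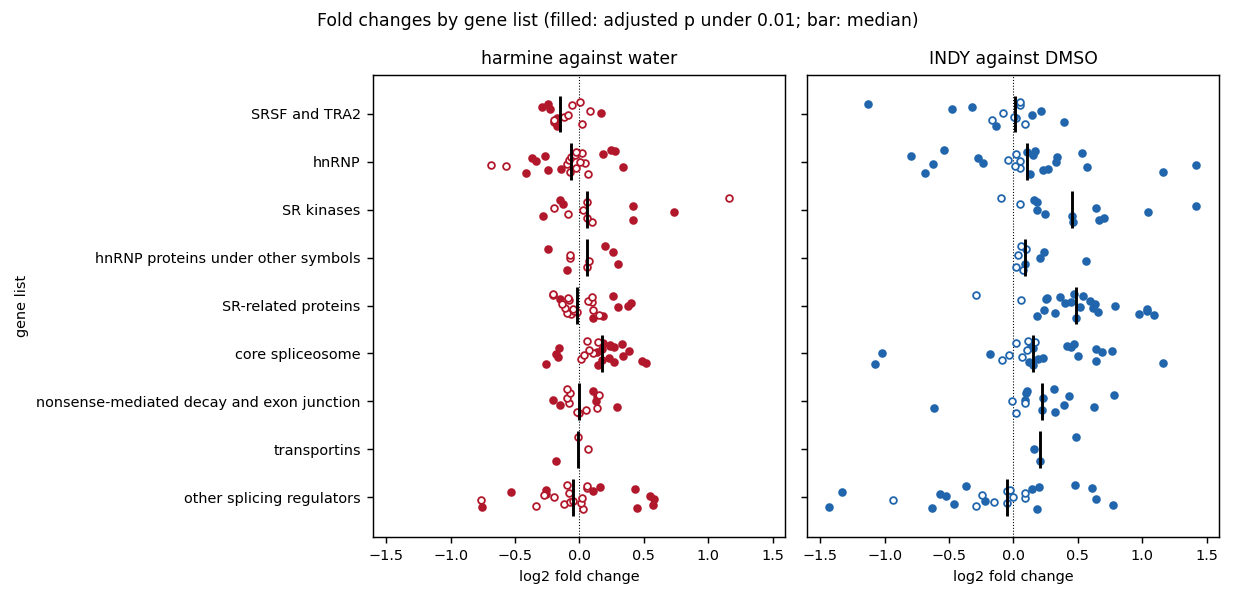
Log2 fold change of each gene by list, with harmine against water on the left and INDY against DMSO on the right; filled points passed an adjusted p under 0.01 and black bars are list medians. With INDY the medians of the SR kinases and the SR-related proteins stand at 0.46 and 0.49, and those of the SRSF and TRA2 genes and of the hnRNP genes at 0.01 and 0.10.

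The level of the members as a whole moved by small amounts, and treated libraries did not overlap with their controls. The median of the 37 members' log2 CPM, after subtracting each gene's mean in the matched vehicle, was -0.07 ± 0.02 in harmine libraries, between -0.09 and -0.04, and 0.01 ± 0.03 in water libraries, between -0.02 and 0.03 (SD, n = 4 each). It was 0.06 ± 0.02 in INDY libraries, between 0.03 and 0.08, and 0.00 ± 0.01 in DMSO libraries, between -0.001 and 0.01 (SD, n = 4 each). For the SRSF and TRA2 genes alone it was -0.12 ± 0.03 with harmine and 0.02 ± 0.04 with INDY. For the hnRNP genes alone it was -0.05 ± 0.03 with harmine and 0.12 ± 0.03 with INDY (SD). The members that moved most, among them TRA2A and HNRNPC, did so in opposite directions and are not seen in these medians.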

How the data were processed

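RNA of 16 U2OS samples was sequenced as stranded poly(A) libraries with paired reads of 100 bases. The values deposited by the authors are estimated counts, 1 row per gene, from Salmon 1.1 run on GENCODE 37 with GRCh38 as decoy and bias correction, summarised over transcripts with tximport, and the authors tested them with edgeR 3.28.1. The counts keep fractions of reads that fit several genes, so that members with shared sequence can trade counts, and they were rounded here to whole numbers. Tests used edgeR 4.0.16 (quasi-likelihood, filterByExpr, TMM factors) in R 4.3.3, with the 4 groups in 1 fit, Benjamini-Hochberg adjustment over 20446 genes and a threshold of 0.01. Each compound was set against its vehicle, the compounds' effects were set against each other, and so were the vehicles. CPM values use the TMM factors, which lay between 0.982 and 1.02. Totals of 44301910 to 65889667 limit only the rarest members. The script that fits the models was tested on simulated data. The alternatives were DESeq2 1.42.0, limma voom (3.58.1), other scaling, filters and thresholds, fits on the compared groups alone, a replicate block, added counts of pseudogene and readthrough rows, and each library left out.

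The members and all gene lists were chosen with earlier results of these data known. All members are named. Full values are given for the 5 largest rises and falls per compound and the 3 largest differences each way among members that passed, and from other lists the 2 largest changes per compound, or all members called where 5 or fewer passed. Annotation is from GENCODE 44, in which 32 members matched by identifier and 7 by symbol. Some genes of the marker and other lists are not reported here by name.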

Additional observations from a re-analysis of the deposited data

Results flagged for a closer look

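The effect of harmine was opposite to that of INDY for 4 members, against 10.8% of all genes tested. The test of the difference passed for each, which adds little because they were picked for passing in opposite directions. The harmine effect minus the INDY effect was -0.47 for HNRNPA2B1, -0.41 for HNRNPA3, -0.60 for SRSF11 and 0.79 for HNRNPUL2 on the log2 scale. For HNRNPUL2 the value was 0.09 once the counts of the readthrough gene HNRNPUL2-BSCL2 were added.

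In 7 of 148 sets of 4 libraries checked, 1 library stood far from the other 3, and chance alone gives about 1 in 20. HNRNPA1 had 1089 CPM in harmine replicate 1, against 1058 to 1060 CPM in the other harmine libraries, and 1513 CPM in DMSO replicate 1, against 1631 to 1641 CPM in the other DMSO libraries. HNRNPA3 had 361 CPM in DMSO replicate 1, where the others had 373 to 375 CPM, and HNRNPA0 had 204 CPM in INDY replicate 3, where the others had 212 to 213 CPM. HNRNPH1 had 134 CPM in harmine replicate 2, where the others had 140.3 to 141 CPM. SRSF2 had 137 CPM in water replicate 4, where the others had 147 to 148 CPM, and SRSF8 had 64.1 CPM in water replicate 1, where the others had 61.5 to 61.9 CPM.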

How the results depend on the processing

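Over all alternatives that kept the threshold of 0.01 without a minimum fold, 14 of 17 members called with harmine, 19 of 25 with INDY, 15 of 22 for the difference between the effects and 1 of 3 for DMSO against water kept their calls. With a minimum fold of 1.5, 0 members were higher and 0 lower with harmine, 2 higher and 4 lower with INDY, 2 higher and 3 lower for the difference, and 0 higher with DMSO than with water. Members higher with DMSO than with water numbered 7 at an adjusted p under 0.05 and 6 with DESeq2. The median log2 fold change with INDY was 0.027 with upper-quartile factors, 0.024 with no scaling factors and 0.033 with no filter on low counts, and that with harmine was -0.13 with no scaling factors. Without water replicates 1 and 4, chosen after seeing the data, the median difference was -0.13, and between DMSO and water 1 member was higher with a median of 0.031. Without INDY replicates 1 and 3, also chosen after seeing the data, 5 members had a harmine effect above the INDY effect and the median difference was -0.13. With each library left out in turn, harmine raised 4 to 5 and lowered 12 to 14 members (median -0.11 to -0.084), and INDY raised 14 to 16 and lowered 10 (median 0.032 to 0.064). The difference was positive for 5 to 8 and negative for 14 to 15 (median -0.13 to -0.082), and DMSO was above water for 1 to 3 and below for 0 (median 0.04 to 0.07). The INDY effect turned to 0.095 for HNRNPUL2 with its readthrough row added and to 0.023 for SRSF1 with AC015813.2 added. The cause of these and of the other shifts was not tested. Deviations of same-numbered libraries correlated at -0.05 to 0.09, too weakly to tell whether replicate numbers pair the libraries. INDY replicates 1, 2 and 4 correlated best with the DMSO library of their own number. So did DMSO replicates 2 and 3 with water libraries, but no harmine library did so with water. With the replicate block the counts were 5 higher and 12 lower with harmine, 15 and 10 with INDY, 8 and 15 for the difference, and 4 and 0 for DMSO against water, with medians of -0.08, 0.05, -0.09 and 0.05. HNRNPCL3 and HNRNPCL4 had too few counts for any test.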
